A study of Mus musculus with 120 samples.

Results

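The DNA replication and mitosis genes examined here are 36 genes chosen by name. They comprise 14 genes of S phase, when DNA is copied, and 22 genes of the G2 phase and mitosis, when the copies are separated. Of 48371 gene symbols in the deposited table, 34 were members (12 of the S-phase genes and all 22 mitotic genes). Gins2 and Cdt1 were not analysed here. The genes were measured in dissociated single cells by Smart-seq2, which copies whole transcripts. The cells came from the E14.5 mouse endolymphatic sac, a fluid-filled pouch of the inner ear. They were taken from Wild-type embryos and from embryos with 1 Sox9Y440X allele and 1 normal copy of Sox9 (Sox9Y440X/+). Sox9 encodes a transcription factor, and the allele is named for a tyrosine codon replaced by a stop codon. The labels give no strain, sex or litter and tie no cell to an animal, so each genotype counted as 1 sample. Values between genotypes therefore carry no replicate error and no test was made.

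Cells that divide switch on 2 waves of genes. Before and during S phase, E2F factors drive the genes for the replication machinery and for making deoxynucleotides. Later, the MuvB complex with B-Myb and FoxM1 drives the genes for the mitotic cyclins, kinases, kinetochores and spindle, and the anaphase-promoting complex then destroys many of their proteins as the cell leaves mitosis. In the sac at this age, epithelial cells become specialised, among them ionocytes, which carry acid and anions across the epithelium and depend on the transcription factor Foxi1. The levels of these transcripts change with phase, so several of them detected together can mark single cycling cells in a mixed tissue.

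Both waves have known letters in their promoters, and the members divided by them. The CHR element (searched as TTTGAA or TTCGAA on both strands), a site of the MuvB complex, lay within 250 bases before to 50 bases after a start site in 13 of 18 mitotic members with a RefSeq promoter (72.2%). It lay there in 2 of 12 S-phase members with a promoter, Cdt1 included (16.7%), and in 21.7% of 27025 genes (19.2% of 32817 promoter windows). The E2F core (the letters TTCGCGC, the variant TTGGCGC or the variant TTCCCGC, both strands) showed the opposite order. It was found in 7 of 12 S-phase members (58.3%), in 3 of 18 mitotic members (16.7%) and in 9.20% of all genes (8.07% of windows). The CCAAT box (CCAAT, both strands), the site of the factor NF-Y, was found in 16 of 18 mitotic members (88.9%), in 8 of 12 S-phase members (66.7%) and in 41.1% of all genes (37.4% of windows). All 13 mitotic members with a CHR element also had a CCAAT box, a pair found in 8.61% of all genes. Other genes of the same processes divided alike: the CHR element was in 31 of 42 other mitosis genes (73.8%) and 7 of 31 other replication genes (22.6%), and the E2F core in 9 of 42 (21.4%) and 19 of 31 (61.3%). A match is a description of letters and not evidence of binding. Mcm4, Gins2, Ccna2, Aurkb, Tpx2 and Kif20a were not in the promoter table.

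**Figure D1:**
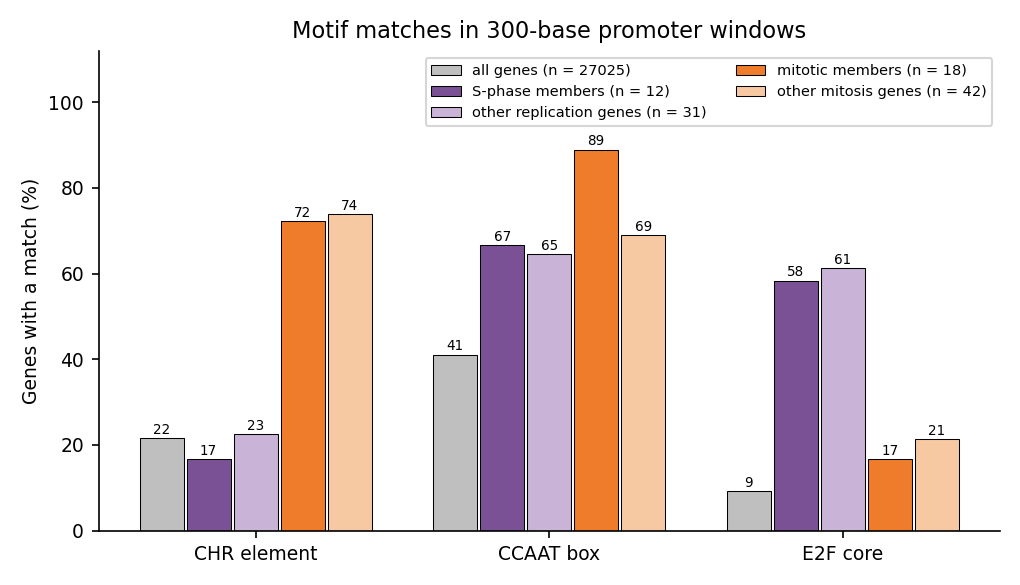
Share of genes (%) with at least 1 match of each motif in their 300-base promoter windows, for all genes, the members and the other genes of the same processes. The mitotic bars stand at 72.2% and 73.8% for the CHR element, and the replication bars at 58.3% and 61.3% for the E2F core.

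Stretches of 4 mitotic promoters are shown because the results below turn on these genes, a choice made after their values were seen. They are those of Top2a (chr11:99024190-99024389, minus strand), which untangles DNA, Mki67 (chr7:135716380-135716579, minus strand), which coats mitotic chromosomes, Ccnb2 (chr9:70421555-70421734, minus strand), a mitotic cyclin, and Kif11 (chr19:37376322-37376381, plus strand), which pushes spindle poles apart. The sequences are from RefSeq on GRCm38.p6, read 5′ to 3′ in the direction of transcription, and no base of them lies in an annotated UTR. Capitals mark the CHR element and the CCAAT box on either strand, so that TTCAAA and ATTGG are matches read on the other strand.
Top2a: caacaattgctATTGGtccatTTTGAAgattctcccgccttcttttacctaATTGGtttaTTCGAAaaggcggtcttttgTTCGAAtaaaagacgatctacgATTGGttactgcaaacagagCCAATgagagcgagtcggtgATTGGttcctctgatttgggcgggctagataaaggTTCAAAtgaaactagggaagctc
Mki67: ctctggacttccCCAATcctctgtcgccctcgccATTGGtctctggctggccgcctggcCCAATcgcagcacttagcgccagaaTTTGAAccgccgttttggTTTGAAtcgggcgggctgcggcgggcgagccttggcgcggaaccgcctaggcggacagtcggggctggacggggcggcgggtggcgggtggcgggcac
Ccnb2: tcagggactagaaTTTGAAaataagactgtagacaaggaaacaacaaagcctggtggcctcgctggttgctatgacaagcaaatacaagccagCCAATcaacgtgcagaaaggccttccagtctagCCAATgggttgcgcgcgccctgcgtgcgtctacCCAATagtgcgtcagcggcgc
Kif11: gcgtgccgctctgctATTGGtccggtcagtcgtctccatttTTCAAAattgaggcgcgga
The Top2a and Mki67 stretches hold more than 1 of each motif, and the Ccnb2 and Kif11 stretches hold 1 CHR element each.

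For the replication wave, stretches are shown of Mcm6 (chr1:128359706-128359825, minus strand), a subunit of the helicase that opens DNA, and Rrm1 (chr7:102441595-102441694, plus strand), the large subunit of ribonucleotide reductase, because both were often detected in scored mesenchyme-like cells. Here capitals mark only the E2F core, and in Mcm6 each capital run joins 2 overlapping matches, one on each strand.
Mcm6: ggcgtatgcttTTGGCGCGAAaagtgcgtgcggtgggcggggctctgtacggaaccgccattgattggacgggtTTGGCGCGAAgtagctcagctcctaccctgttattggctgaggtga
Rrm1: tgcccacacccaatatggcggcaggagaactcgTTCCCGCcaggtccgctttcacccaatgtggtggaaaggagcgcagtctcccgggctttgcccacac
Neither of the 300-base windows of Mcm6 and Rrm1 held a CHR element.

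The 115 cells with at least 1000 genes per their label (57 Wild-type, 58 Sox9Y440X/+) were clustered without the members and without other replication and mitosis genes. Epithelium-like clusters, with 7 to 13 of 14 epithelium markers in most of their cells, were divided by Foxi1 at an FPKM of at least 1 (fragments per transcript length and per sequenced fragments). This gave 22 Wild-type and 7 Sox9Y440X/+ Foxi1-positive cells and 34 and 30 other epithelium-like cells. The Foxi1-positive cells just inside that limit had an FPKM of 3.37 or more, and the highest other cell had 0.423. Of the 12 ionocyte markers, 9 were found in most cells of 1 cluster only, which held 8 Wild-type and 5 Sox9Y440X/+ cells, so Foxi1-positive is not used here as a name for ionocytes. Mesenchyme-like cells, with 6 or 9 of 15 connective tissue markers in most cells of their 2 clusters, numbered 21 in Sox9Y440X/+ and 1 in Wild-type. No cell had 5 or more markers of both kinds. One Sox9Y440X/+ mesenchyme-like cell had all 9 endothelium markers and no mesenchyme marker, and leaving it out did not move a share or median by more than the limits used. Xist, expressed from an inactive X chromosome, was detected in 35 of 57 Wild-type cells and in no Sox9Y440X/+ cell, so genotype and the sex of the embryos cannot be told apart.

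A cell was scored as mitotic when at least 7 of the 22 mitotic members were detected, that is, had an FPKM of at least 1, and as replicating when at least 5 of the 12 measured S-phase members were. Mitotic cells stood apart from the others. Of 115 cells, 17 had 9 to 22 mitotic members and 98 had 0 to 5, with no cell in between. The S-phase members gave no such gap at their limit, since 14 cells had 3 of them, 16 had 4 and 5 had 5. Of the 18 replicating cells, 8 were also mitotic. Mitotic is thus the name of a score here, and its shares are not shares of cells in mitosis.

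**Figure D2:**
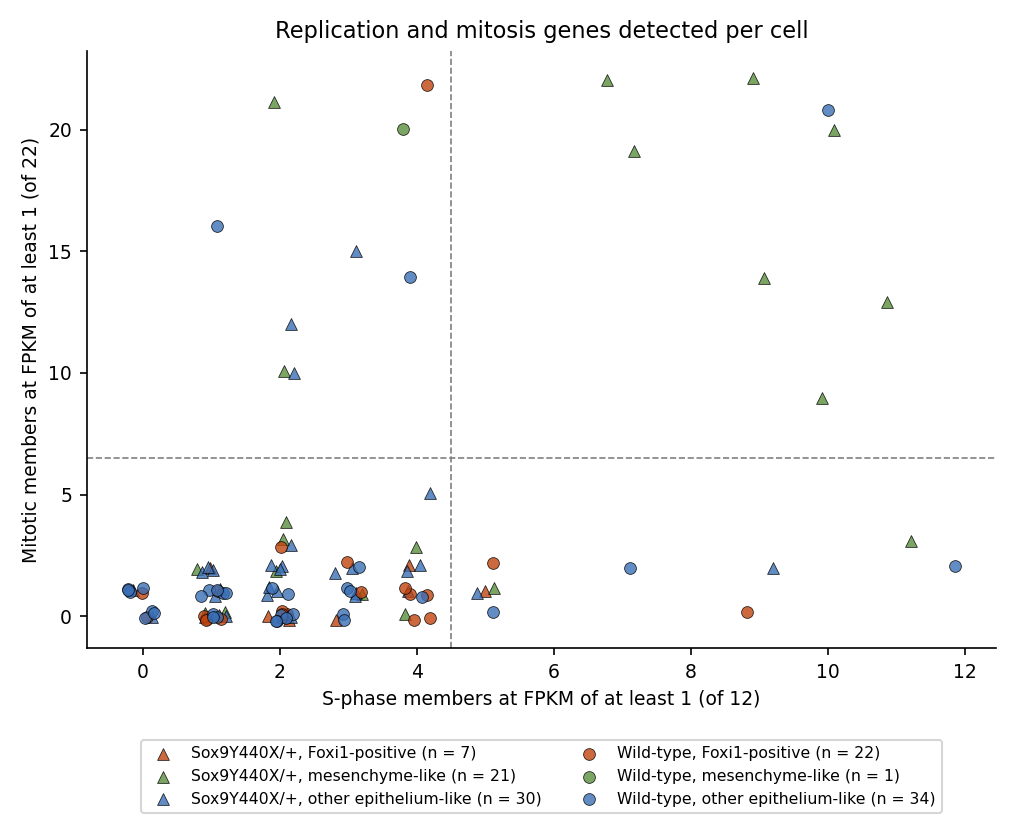
S-phase members (of 12, horizontal) and mitotic members (of 22, vertical) detected in each of 115 cells, with small random shifts so that points do not hide each other. Dashed lines mark the limits of 5 and 7, and colours and shapes give class and genotype. The 17 mitotic cells lie above an empty band between 5 and 9 members.

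Genes that the score did not use followed it. Of 52 other mitosis genes, the mitotic cells had a median of 23 detected (range 8 to 45) and the remaining 98 cells a median of 3 (range 0 to 18). Of 38 other replication genes the medians were 12 and 4. Across 115 cells the count of mitotic members followed that of other mitosis genes with a Pearson r of 0.95 and a Spearman rho of 0.64. The S-phase count followed other replication genes with 0.81 and 0.70. Such counts share the depth of the cell, which is unknown. The S-phase count also followed the number of genes per cell (Spearman rho 0.61), as did the mitotic count (0.41). Mitotic cells had a median of 3931 genes per label (range 3159 to 6459) and the others 3573.5 (range 1209 to 6331), ranges that overlap widely.

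Among the cyclins and their kinase, Ccna2, the cyclin of S phase and G2, was detected in 16 of 17 mitotic cells and 3 of 98 others. In the mitotic cells it had a lowest FPKM of 0, a median of 93.2 and a highest of 225. Ccnb2 was detected in 16 of 17 (0, 138 and 763) and in 2 of 98 others, in which it reached 191. Ccnb1, the other mitotic cyclin, was detected in 13 of 17 and 2 of 98. Their kinase Cdk1 reached the highest FPKM of all members, 1665, with a median of 403 in mitotic cells, where it was detected in 14 of 17. It was less selective, being detected in 19 of 98 other cells at up to 575 FPKM, and so was Cks2, which binds the kinase, in 15 of 17 and 21 of 98. All these genes are part of the score, so their counts in mitotic and other cells are a description.

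Cenpf, Ube2c and Kif11 were detected in mitotic cells alone, a description only, since they are part of the score. Cenpf, an outer kinetochore protein, was detected in 15 of 17 mitotic cells (median FPKM 16.4, highest 55.8) and in none of 98 others. Ube2c, the ubiquitin-conjugating enzyme of the anaphase-promoting complex, was detected in 15 of 17 (median 250, highest 1231) and 0 of 98. Kif11 was detected in 11 of 17 (median 7.80, highest 47.8) and 0 of 98. Mki67, widely used as a proliferation marker, was detected in 14 of 17 mitotic cells and 1 of 98 others, but at low levels per length, with a median of 15.3 and a highest of 36.7. Top2a had a median of 78.1 in mitotic cells, with 12 of 17 positive, and was detected in 5 of 98 others. Top2a alone would leave out 5 of the 17 cells.

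Birc5, the survivin subunit of the passenger complex, was detected in 15 of 17 mitotic cells (median FPKM 254, highest 839) and 4 of 98 others. Its partner kinase Aurkb was detected in 8 of 17 and 2 of 98. Aurka, the spindle pole kinase, was detected in 10 of 17 and 2 of 98, and Plk1, a kinase of mitotic entry and exit, in 12 of 17 and 1 of 98. The checkpoint kinase Bub1 was detected in 11 of 17 and 2 of 98. Cdc20, which activates the anaphase-promoting complex, was detected in 13 of 17 (median 113, highest 815) and 3 of 98. The centromere histone Cenpa was detected in 15 of 17 (median 202, highest 1180) but also in 9 of 98 others. The kinetochore motor Cenpe was detected in 10 of 17 and 1 of 98.

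Tpx2, which starts microtubules at chromosomes, was detected in 14 of 17 mitotic cells and 5 of 98 others. Nusap1 and Prc1, which bundle microtubules, were each detected in 9 of 17, and in 1 and 2 of 98 others. Kif20a, a midzone motor, was detected in 13 of 17 but also in 12 of 98 others, where its highest FPKM was 49.5 against 147 in mitotic cells.

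**Figure D3:**
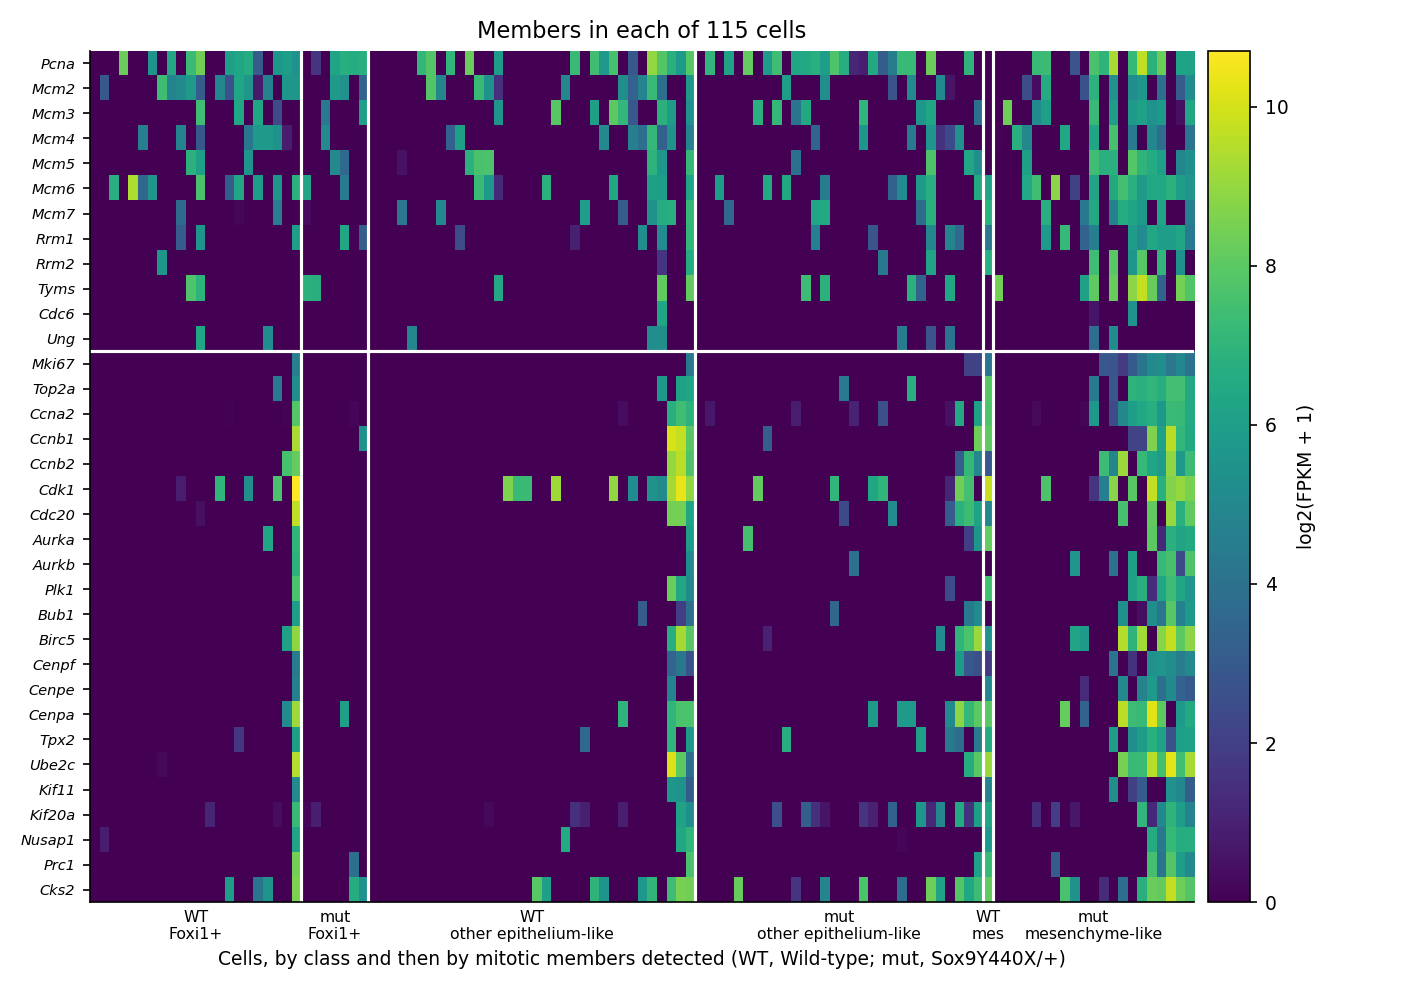
log2(FPKM + 1) of the 34 measured members (rows, S-phase members above the white line) in 115 cells (columns), grouped by class and genotype and ordered by mitotic members within each group. Mitotic members fill most of the columns at the right of each group that holds mitotic cells, while S-phase members are scattered across cells of every group.

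The replication members were spread over many more cells. Pcna, the sliding clamp of DNA polymerases, was detected in 12 of 17 mitotic cells and in 51 of 98 others, reaching 810 and 495 FPKM. Pcna has 2 pseudogene entries in the table and Ccnb2 has 1, so their reads may be shared with near-identical copies. Among the helicase subunits, Mcm6 was detected in 13 of 17 and 31 of 98, Mcm2 in 8 and 35, Mcm3 in 9 and 24, Mcm4 in 8 and 25, Mcm5 in 10 and 15, and Mcm7 in 9 and 16. Of the deoxynucleotide enzymes, Rrm1 was detected in 11 of 17 and 15 of 98 and its partner Rrm2 in 7 and 5. Thymidylate synthase Tyms was detected in 8 and 14, with a highest FPKM of 841. Outside mitotic cells Rrm1 and Tyms were thus found about as often as Mcm5 and Mcm7, and Rrm2 was rarer. Cdc6, which loads the helicase, was detected in 2 cells in all (42.1 and 79.3 FPKM), and Ung, which removes uracil from DNA, in 1 of 17 and 9 of 98. Cdc6 and Ung therefore added little to the score.

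Cycling cells were found in both genotypes and in each class, most often among mesenchyme-like cells. Of 21 Sox9Y440X/+ mesenchyme-like cells, 9 met the mitotic score (42.9%, exact Clopper-Pearson 95% interval 21.8% to 66.0%). Of those 9, 7 also met the replicating score. Of 30 other epithelium-like Sox9Y440X/+ cells, 3 were mitotic (10%, 2.11% to 26.5%), and of 34 Wild-type ones also 3 (8.82%, 1.86% to 23.7%). Among Foxi1-positive cells, 1 of 22 Wild-type cells was mitotic (4.55%, 0.115% to 22.8%) and 0 of 7 Sox9Y440X/+ cells, which allows a share of up to 42.9%. The single Wild-type mesenchyme-like cell was mitotic, with 20 mitotic members. Only counting error enters these intervals, and the spread between embryos does not.

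**Figure D4:**
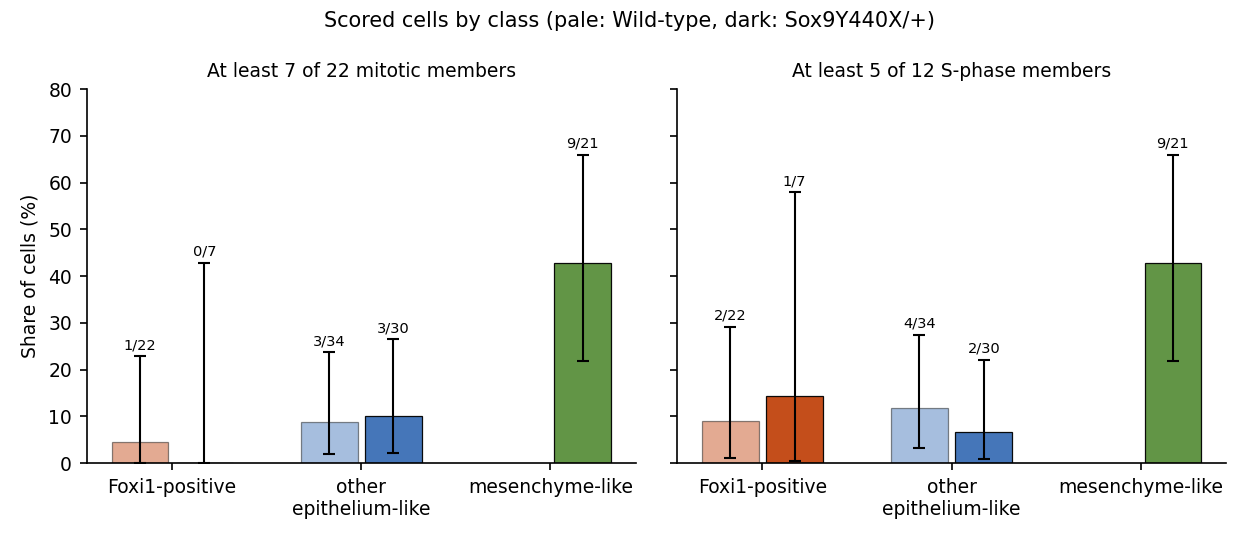
Share of cells (%) scored as mitotic (left) and replicating (right) in each class, pale for Wild-type and dark for Sox9Y440X/+, with scored cells over all cells above each bar. Bars through the columns are exact 95% intervals, or the limit that 0 of 7 cells allows. The mesenchyme-like columns stand at 42.9% on both sides, and the single Wild-type mesenchyme-like cell is not drawn.

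Mitotic cells were 4 of 56 in Wild-type epithelium-like cells (7.14%, 1.98% to 17.3%) and 3 of 37 in Sox9Y440X/+ ones (8.11%, 1.70% to 21.9%). With either score, 9 of 56 (16.1%, 7.62% to 28.3%) and 6 of 37 (16.2%, 6.19% to 32%) were cycling. The intervals overlap almost wholly, and a difference within them was not detectable with this number of cells. Median genes per label were lower in Wild-type other epithelium-like cells (3046) than in Sox9Y440X/+ ones (4380), and how far this bears on their detection was not tested.

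Over all cells the genotypes differed more, 12 of 58 Sox9Y440X/+ cells being mitotic (20.7%, 11.2% to 33.4%) against 5 of 57 Wild-type cells (8.77%, 2.91% to 19.3%). Of those 12, 9 were mesenchyme-like. Among Wild-type cells, 4 of 35 with Xist and 1 of 22 without it were mitotic, and the part of sex was not tested. The labels say nothing of how cells were picked, and genotype and dissection cannot be told apart. Sox9Y440X/+ cells included 17 of 58 cycling cells (29.3%) and Wild-type cells 10 of 57 (17.5%).

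The mesenchyme-like cells were not uniform. The cluster that held 13 Sox9Y440X/+ cells and the Wild-type cell had 10 mitotic cells of 14 (71.4%, 41.9% to 91.6%), while the other cluster, of 8 Sox9Y440X/+ cells, had 0 of 8, which allows up to 37.5%. Mcm6 was detected in 13 of 14 cells of the first cluster and 2 of 8 of the second, Top2a in 10 of 14 and 0 of 8, and Birc5 in 10 of 14 and 0 of 8. The first cluster was led by Hist1h2ao, Crym and Hist1h2ap, 2 of them histone genes, a class expressed in S phase. When 70 histone symbols were also left out of the clustering, all 14 cells stayed together with 1 more, and again held all 10 mitotic cells. Only listed genes were left out, and whether cycling itself shaped these clusters was not tested. Cells of the first cluster had more genes per label, a median of 3990 in Sox9Y440X/+ cells against 2765, and its part in the result was not tested.

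Foxi1 level and cycling were set side by side after their values were seen. The limit of 100 FPKM was chosen then too, so the intervals and bounds given at that limit are a description only. All 3 cycling Wild-type Foxi1-positive cells had low Foxi1, at 17.9, 40.3 and 42.6 FPKM, and all 3 lay outside the ionocyte marker cluster. Of 7 Wild-type cells under 100 FPKM, 3 were cycling (42.9%, 9.90% to 81.6%), and of 15 cells from 100 FPKM upward none was, which allows up to 20%. In Sox9Y440X/+ cells the order was not the same, since 1 of 5 cells from 100 FPKM was replicating (cell 62, at 452 FPKM with 5 S-phase members and 1 mitotic member) and 0 of 2 below it. Over both genotypes, no cell from 100 FPKM was mitotic (0 of 20, up to 15%). The cells under 100 FPKM had more genes per label in Wild-type, a median of 5367 against 3801, and this was not tested apart from Foxi1. In the ionocyte marker cluster 0 of 13 cells were mitotic, up to 23.1%.

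The mitotic Foxi1-positive cell, Wild-type cell 24, expressed all 22 mitotic members. It had 1665 FPKM of Cdk1, 815 of Cdc20, 705 of Ube2c, 645 of Ccnb1 and 22.6 of Mki67, beside 40.3 of Foxi1, 12 epithelium markers and no mesenchyme marker. Its 4 S-phase members were Pcna, Mcm2, Mcm6 and Rrm1, the highest being Mcm6 at 115 FPKM. It was thus as complete in its mitotic genes as any cell in the series.

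The remaining 6 mitotic epithelium-like cells were less complete. Wild-type cell 35 had 21 mitotic members, all but Cenpe, and 10 S-phase members, with Pcna at 234 and Tyms at 282 FPKM. Wild-type cell 19 had 16 mitotic members, with Cdk1 at 1288 and Ccnb1 at 845 FPKM, but Mki67 listed at 0 and Pcna its only S-phase member. Wild-type cell 21 had 14, with Ccnb1 at 1074 and Ube2c at 1128 FPKM, and again Mki67 listed at 0. The Sox9Y440X/+ cells 13, 19 and 36 had 15, 12 and 10 mitotic members, and Top2a, Plk1, Nusap1, Aurkb, Cenpe and Kif11 were listed at 0 in each of the 3. These 3 cells all had Cdc20, at 72.2, 160 and 113 FPKM, and Birc5, at 546, 202 and 125 FPKM. Cdc20, Birc5, Cenpa, Cenpf, Ccnb2 and Cks2 were detected in all 7 mitotic epithelium-like cells.

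In the 10 mitotic mesenchyme-like cells the constant members were others. Of these 10 cells 9 were Sox9Y440X/+, against 3 of the 7 mitotic epithelium-like cells, and the part of genotype was not tested. Mcm6, Mki67 and Ccna2 were detected in all 10, Mcm6 between 46.6 and 179 FPKM with a median of 82.2. In the 7 epithelium-like mitotic cells Mcm6 was detected in 3, Mki67 in 4 and Ccna2 in 6. Top2a was detected in 9 of 10 and 3 of 7, and Tyms in 7 of 10 and 1 of 7. Conversely, Cdc20 was detected in 6 of 10 mesenchyme-like and 7 of 7 epithelium-like mitotic cells. Both scores were met together in 7 of the 10 mitotic mesenchyme-like cells and in 1 of the 7 mitotic epithelium-like cells, both genotypes included. The medians of S-phase members were 8 and 3, and of other replication genes 17 and 4, in cells with similar median genes per label (3959 and 3931).

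Single mesenchyme-like cells differed in which wave prevailed. Sox9Y440X/+ cell 34 had 10 S-phase members, with Pcna at 642, Tyms at 298 and Rrm2 at 249 FPKM, and 9 mitotic ones, while Ccnb1, Cdc20, Aurka, Plk1, Birc5 and Ube2c were listed at 0. Cell 58 had 11 S-phase members, including Cdc6 at 42.1 FPKM, with Ccnb1 at 3.62 FPKM and Cdc20 and Aurka listed at 0. At the other end, cell 24 had 21 mitotic members, with Ube2c at 1231, Cks2 at 843 and Cdc20 at 526 FPKM, and Mcm6 and Rrm1 as its only S-phase members. Cells 25 and 32 had all 22 mitotic members together with 7 and 9 S-phase members, and they also had many genes per label (6459 and 6317). Cell 20, with 10 mitotic members, had 2 mesenchyme and 3 pericyte markers and so carried its class name weakly.

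Replicating cells without the mitotic score numbered 10, and 8 of them were epithelium-like. Of the 22 Wild-type Foxi1-positive cells 2 were replicating (9.09%, 1.12% to 29.2%), of 34 other Wild-type epithelium-like cells 4 (11.8%, 3.30% to 27.5%), of 7 Sox9Y440X/+ Foxi1-positive cells 1 (14.3%, 0.361% to 57.9%) and of 30 other Sox9Y440X/+ epithelium-like cells 2 (6.67%, 0.818% to 22.1%). Of 21 mesenchyme-like Sox9Y440X/+ cells 9 were (42.9%). Wild-type cell 1 had all 12 measured S-phase members, 16 of 38 other replication genes and 2 mitotic members. Since many cells had 3 or 4 S-phase members, these shares move with the limit: at 3 members, 10 of 22 Wild-type Foxi1-positive cells (45.5%), 11 of 34 Wild-type and 11 of 30 Sox9Y440X/+ other epithelium-like cells (32.4% and 36.7%) would count.

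Gene by gene, the genotypes were compared within other epithelium-like cells by the difference of mean log2(FPKM + 1), Sox9Y440X/+ minus Wild-type. A difference of at least 1 in size was taken as a call. No member was higher by 1, where 12.4% of 10476 genes were, and 2 were lower by 1, where 1.6% of genes were. Mcm2 was at a mean of 0.82 ± 1.88 (SD over 30 cells) against 1.83 ± 2.72 (SD over 34 cells), a difference of -1.0, with 5 of 30 and 12 of 34 cells positive. Cdk1 was at 1.52 ± 3.01 against 2.52 ± 3.83, also -1.0, with 7 of 30 and 11 of 34 positive. Each fell below the limit without 1 cell, at -0.82 without Wild-type cell 4 and at -0.76 without Wild-type cell 19. The median difference was -0.06 over the 12 S-phase and -0.02 over the 22 mitotic members, where all genes tested had a median of 0.30. The members' medians include those detected in few cells, which the genes tested leave out. Over members detected in at least 10% of either group, the medians were -0.06 and 0.25. This filter is uneven, as 3 of 30 Sox9Y440X/+ cells pass it and 3 of 34 Wild-type cells do not. Ccnb2, Aurka, Bub1 and Cenpf passed it at 3 of 30. The positive sign of the mitotic median therefore cannot be read as a change of direction. Without Xist-positive Wild-type cells the S-phase median was -0.36. Only 22 of the 34 members were detected in at least 10% of either group. Pcna came closest to a call upward, at 0.94, with 19 of 30 and 15 of 34 cells positive and nearly equal mean FPKM (74.0 and 75.2). Kif20a differed by 0.89, with 11 of 30 and 3 of 34 cells positive.

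Of 38 other replication genes 1 was higher and 2 were lower by at least 1, with a median of -0.02. Of the 10476 genes tested, 12.4% were higher and 1.6% lower. Dut, which removes dUTP, was higher by 1.05, while Rfc3, of the clamp loader, and Pola2, of the primase complex, were at -1.26 and -1.12, and Rpa1, which coats single strands, at -0.96. Of 52 other mitosis genes 4 were higher and 0 lower, beside the same 12.4% and 1.6% of the genes tested, with a median of -0.07. The 4 were Hmgb2, a chromatin protein (1.75, 22 of 30 against 10 of 34 cells positive), Pttg1, or securin (1.5), the checkpoint gene Bub3 (1.23) and Cks1b (1.19). Cks1b was detected in 18 of 30 and 15 of 34 cells.

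Over all cells 2 members were called higher in Sox9Y440X/+ (5.79% of 10527 genes) and 0 lower (3.21%). Tyms was at 2.10 ± 3.41 (SD over 58 cells) against 0.66 ± 2.14 (SD over 57 cells), a difference of 1.45, with 17 and 5 cells positive. Cenpa was at 2.05 ± 3.34 against 0.91 ± 2.47, a difference of 1.14, with 17 and 7 cells positive. The median difference was 0.57 over S-phase and 0.54 over mitotic members, beside 0.15 over the 10527 genes tested, which leave out those detected in few cells. Without Xist-positive Wild-type cells the S-phase median was 0.28. Of the other replication genes Rfc2 (1.04), Orc6 (1.02), Slbp (0.81) and Dut (0.79) differed most, and of the other mitosis genes Hmgb2 (1.83), Cks1b (1.29), Racgap1 (0.88) and Smc2 (0.75). Of the 38 and 52 genes, 2 and 2 were higher by at least 1 and none lower. The share of mesenchyme-like cells, 21 of 58 against 1 of 57, moved with these values, and its part in them was not tested.

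In Foxi1-positive cells, with 7 against 22 cells, 1 member was called higher in Sox9Y440X/+ (17.5% of 11450 genes) and 2 lower (7.69%). Tyms differed by 1.28 but by 0.46 without Sox9Y440X/+ cell 26. Mcm6 differed by -1.24, and by -0.92 without Wild-type cell 41. Cdk1 was listed at 0 in all 7 Sox9Y440X/+ cells and detected in 4 of 22 Wild-type ones, a difference of -1.43, or -0.99 without the mitotic cell 24. Of 22 mitotic members, 18 were detected in none of the 7 cells. The medians were -0.13 for S-phase and -0.32 for mitotic members, beside 0.24 for the genes tested, which leave out genes detected in few cells. Over members detected in at least 10% of either group the medians were 0.43 and 0.22. This filter is uneven, as 1 of 7 Sox9Y440X/+ cells passes it and 2 of 22 Wild-type cells do not. Ccnb1, Cenpa and Prc1 passed it through 1 Sox9Y440X/+ cell each. The changed signs therefore cannot be read as a change of direction. Of other replication genes 4 were higher and 3 lower by at least 1, led by Orc6 (2.25), Rfc2 (2.08), Cdk2 (-1.73) and Rpa1 (-1.64), the others being Pold2 (1.48), Gins4 (1.16) and Lig1 (-1.52), named after their values were seen. Of other mitosis genes 1 was higher and 2 lower, led by Pttg1 (2.14), Cks1b (-1.55), Smc4 (-1.07) and Dlgap5 (0.75).

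Foxi1-positive cells were also compared with other epithelium-like cells within each genotype, using the same cells again. In Wild-type, Mcm2 (1.15, with 13 of 22 and 12 of 34 cells positive) and Mcm6 (1.42, with 10 of 22 and 8 of 34) were called higher in Foxi1-positive cells, where 16% of 9585 genes were. Cdk1 was called lower (-1.08, with 4 of 22 and 11 of 34), where 2.41% were. Mcm2 fell below the limit without Wild-type cell 39 (0.94), and Cdk1 without cell 19 (-0.85). Mcm2 and Mcm6 are subunits of 1 complex, yet Mcm3 (-0.61), Mcm5 (-0.40) and Mcm7 (-0.92) had the opposite sign and Mcm4 differed by 0.29. Of other replication genes 2 were higher and 1 lower, the 4 largest differences being those of Slbp (1.78), Dut (1.49), Rfc3 (-1.47) and Orc6 (-0.97). Of other mitosis genes 1 was higher and 0 lower, the largest being Hmgb2 (1.03), Cdca8 (-0.83), Bub3 (0.71) and Pttg1 (0.70).

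In Sox9Y440X/+ cells, Mcm2 was again called higher in Foxi1-positive cells (1.26, with 3 of 7 and 5 of 30 positive, where 17.1% of 11992 genes were), but its difference was 0.65 without Sox9Y440X/+ cell 5. Cdk1 (-1.52), Kif20a (-1.18) and Cdc20 (-1.04) were called lower, where 7.74% were, each of them detected in none of the 7 Foxi1-positive cells and in 7, 11 and 6 of the 30 others. Cdc20 fell below the limit without Sox9Y440X/+ cell 19 (-0.82). Of other replication genes 3 were higher and 2 lower, the largest being Rfc2 (2.06), Pold2 (1.64), Lig1 (-1.21) and Slbp (1.20), and the other lower gene being Pold1 (-1.03), named after its value was seen. Of other mitosis genes 1 was higher and 2 lower, the largest being Cks1b (-2.45), Pttg1 (1.34), Hmgb2 (-1.25) and Bub3 (-0.86).

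The largest contrast was between mesenchyme-like and other epithelium-like cells of Sox9Y440X/+. Of the 34 members, 28 were higher by at least 1 in mesenchyme-like cells, where 8.78% of 11174 genes were, and 0 were lower, where 15.3% were. The clusters were made without these genes, but from the same cells. The median difference was 1.5 over S-phase and 1.58 over mitotic members, beside -0.17 over the 11174 genes tested. The genes tested leave out those detected in few cells, and the members do not. The largest was that of Ube2c, at 3.20 ± 4.24 (SD over 21 cells) against 0.49 ± 1.86 (SD over 30 cells), a difference of 2.71 with 8 of 21 and 2 of 30 cells positive. Tyms followed at 2.65 (10 of 21 and 5 of 30), Mcm6 at 2.52 (14 and 9), Birc5 at 2.48 (9 and 4), Ccnb2 at 2.48 (9 and 3) and Mcm5 at 2.31 (10 and 4). The SD among mesenchyme-like cells exceeded the difference for each of the 34 members.

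The 6 members below the limit in this contrast were of different kinds. Pcna differed by 0.06, with 12 of 21 and 19 of 30 cells positive, and Kif20a by 0.34, in 8 and 11. Cdc20 and Aurka differed by 0.85 and 0.86. Cdc6 and Ung, at 0.29 and 0.05, were detected in 1 and 2 mesenchyme-like cells. Without Sox9Y440X/+ cell 24, Bub1 (0.85), Cks2 (0.80) and Kif11 (0.93) also fell below the limit, and without cell 45 Cenpf did (0.92). Of 38 other replication genes 16 were higher and 0 lower, with a median of 0.79, led by Tk1 (2.56, thymidine kinase), Slbp (2.15, which binds histone messages), Cdk2 (2.07) and Pold2 (2.0). Of 52 other mitosis genes 27 were higher and 1 lower, with a median of 1.06, led by the condensin subunit Smc2 (2.49), the cytokinesis gene Racgap1 (2.47), Pbk (2.36) and the kinetochore gene Spc24 (2.10). The 1 lower gene, Pttg1, is named after its value was seen and was at 1.77 against 3.83, a difference of -2.06, with 5 of 21 and 16 of 30 cells positive. The medians of the members depend on the pseudocount, at 2.38 and 2.37 with 0.1 and at 0.73 and 0.72 with 10.

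**Figure D5:**
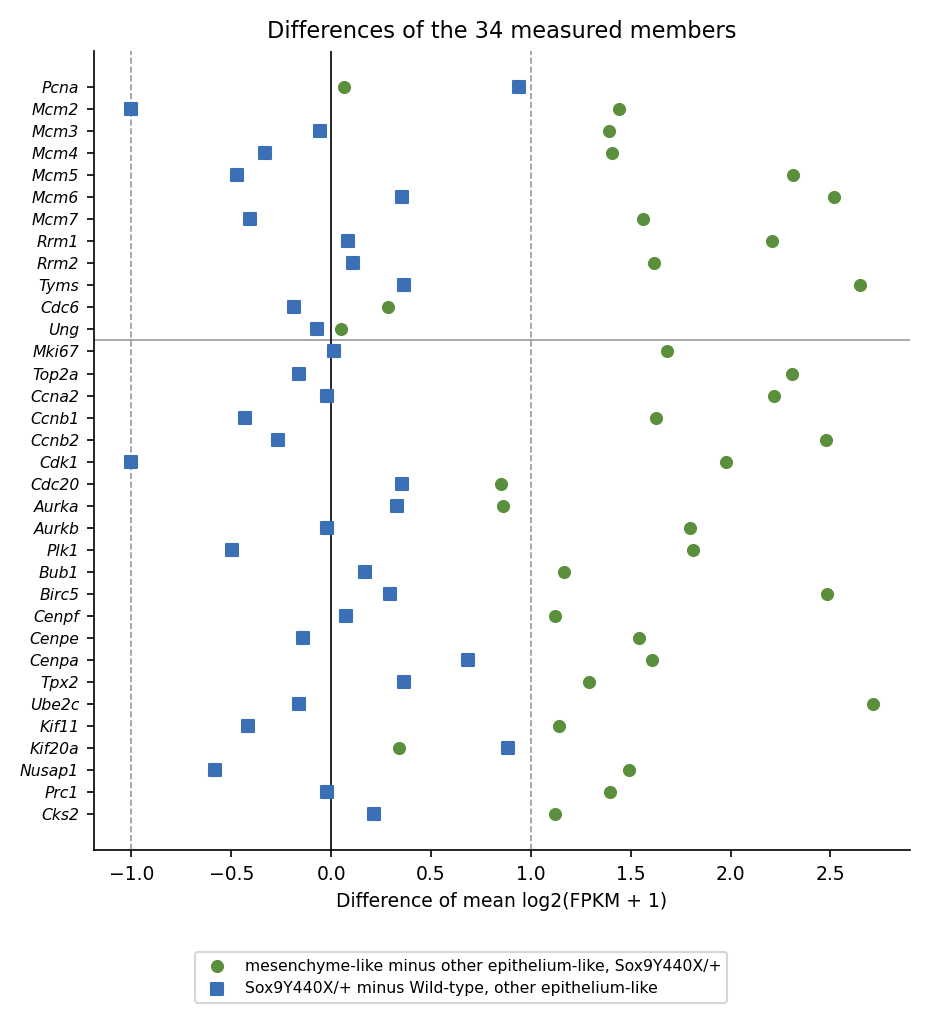
Difference of mean log2(FPKM + 1) for each of the 34 measured members, S-phase members above the grey line. Circles compare mesenchyme-like with other epithelium-like Sox9Y440X/+ cells and squares compare genotypes within other epithelium-like cells. Of the circles 28 lie beyond the dashed line at 1, and of the squares 2 reach the line at -1.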

How the data were processed

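Single cells were measured by Smart-seq2, per the labels' protocols, and the authors deposited FPKM values in 1 table of 48555 entries and 120 cells. HISAT2, Cufflinks, HTSeq, SAMtools 0.1.18 and the build mm10 are listed, with no roles or settings, per the submitters' processing notes. Depth per cell is unknown, as FPKM values hold no counts. An exact 0 can be a failed estimate. Entries with the same symbol were summed. The summed FPKM per cell ran from 192089 to 4444520, with a median of 462576. No pair of cells was near-identical, the highest correlation of log values being 0.70. Below 1000 labelled genes a cell was not used (1 of 58 Wild-type and 4 of 62 Sox9Y440X/+ cells). They had 0 S-phase members and at most 1 mitotic member.

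The 8 clusters came from Ward's method, applied to the first 15 components of the 1500 genes of highest variance found in at least 5 cells, with the 34 members, 38 other replication and 52 other mitosis genes left out. Casc5 stood for Knl1. A cluster took the name of the marker list with the highest mean level among lists with at least 3 markers in at least 50% of its cells. Doublets were looked for only as cells with both kinds of markers. Differences are of mean log2(FPKM + 1), with SDs over cells, and a gene entered the background when at least 10% of either group had it. Such differences understate those of low genes. Shares have exact Clopper-Pearson 95% intervals, and a share of 0 has the limit of 3 counts.

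The members and lists were chosen with earlier results of these data known. All members are accounted for, and of each pathway list the 4 genes with the largest differences per comparison are named. The Foxi1 limit of 100 FPKM and the cells described singly were picked with their values in view. Alternatives were detection limits of 0.1 and 5 FPKM, other score limits, gene number filters, scaling to the same total, pseudocounts of 0.1 and 10, log2 ratios of group means, clusters with the members, classes by marker counts, other Foxi1 rules and Wild-type cells without Xist. Clusters without histone genes and the omission of the cell with endothelium markers were added after seeing the data. Python 3.11.15, numpy 2.4.6, pandas 2.3.3, scipy 1.17.1 and matplotlib 3.10.9 were used. The script for differences was tested on simulated data. Promoters came from the RefSeq table on GRCm38.p6.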

Additional observations from a re-analysis of the deposited data

Results flagged for a closer look

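In each of 8 groups of 4 to 10 cells of 1 genotype and cluster, the counts of S-phase and of mitotic members were checked for a cell far from the others, 16 checks in all. A gap of the size used arises by chance in about 1 in 20 groups of continuous values. Its rate in small counts with ties, as here, was not worked out. Wild-type cell 19 had 16 mitotic members among 10 cells of its cluster, in which no other cell was mitotic. Sox9Y440X/+ cell 61 had 9 S-phase members among 10 cells of its cluster, whose median was 3.5. Sox9Y440X/+ cell 62, of the ionocyte marker cluster, had 1 mitotic member where the other 4 Sox9Y440X/+ cells had none. Sox9Y440X/+ cell 38 had 0 S-phase members in a cluster of 6 cells whose median was 1. The last pair differ by a single gene.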

How the results depend on the processing

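Of 140 recomputed shares 132 stayed within the limits used (an exact 95% interval), of 90 medians of differences 73 (within 0.25 log2 units), and of 381 recomputed values of single genes 308 (within a factor of 1.5). No single gene's value was counted as reversed, by a count that did not register the sign changes of medians given next. Medians changed sign in Foxi1-positive cells for both sets of members over those detected in at least 10% of a group, and in other epithelium-like cells for the mitotic members, at 0.08 without Xist-positive cells, 0.05 with a pseudocount of 0.1 and 0.25 over members so detected. The 10% filter passes 1 of 7 or 3 of 30 Sox9Y440X/+ cells but not 2 of 22 or 3 of 34 Wild-type cells. A sign change under it therefore cannot be read as a direction. With limits of 3 S-phase and 5 mitotic members, 45.5% of Wild-type Foxi1-positive, 32.4% of Wild-type and 36.7% of Sox9Y440X/+ other epithelium-like cells were replicating. With the ionocyte marker cluster in place of Foxi1-positive cells, 0 of 8 Wild-type cells were replicating and 0 were mitotic. Without Xist-positive cells, 0 of 12 Wild-type Foxi1-positive cells were mitotic. The replicating share of Sox9Y440X/+ Foxi1-positive cells was 0 with limits of 7 and 11 members and 0 among cells with 2500 to 5500 genes. For S-phase members in all cells the median was 0.28 without Xist-positive cells, 0.85 with a pseudocount of 0.1 and 0.28 with 10. For mitotic members in all cells it was 0.29 in cells with 2500 to 5500 genes, 0.85 with a pseudocount of 0.1 and 0.25 with 10. In other epithelium-like cells the S-phase median was -0.33 in cells with 2500 to 5500 genes and -0.36 without Xist-positive cells, and the mitotic median 0.25 over members detected in at least 10% of a group. In Foxi1-positive cells the S-phase median was 0.43 over such members, and the mitotic median was 0.22 over such members, -0.58 in cells with 2500 to 5500 genes and 0 without Xist-positive cells. Between mesenchyme-like and other epithelium-like cells the S-phase median was 2.38 with a pseudocount of 0.1 and 0.73 with 10, and the mitotic median 2.37 and 0.72. Beyond the construction of each setting, the cause was not tested. The log2 ratio of mean FPKM gave a median only where every member had a mean above 0.01 in both groups. No paired analysis was possible because no test was made and numbers that recur in both genotypes only name cells. The number of cells, 7 to 34 per epithelial class, limits every share.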
